A study of Mus musculus with 17 samples.

Results

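The 44 genes described here encode the lysosome and the autophagy machinery of the mouse intestinal epithelium. They were taken by symbol from the count tables of 17 libraries, all 44 were found among 26422 gene names, and all 44 passed the filter on low counts in the comparison over all days, which tested 12812 genes. They fall into 8 role groups: the TFEB family of transcription factors, lysosomal membrane proteins, cathepsins, glycosidases and lipid-handling proteins, the proton pump, autophagy initiation, ATG8 conjugation, and the ATG8 proteins with the receptor p62.

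Lysosomes are acidic compartments in which hydrolases break down material delivered by endocytosis and by autophagy, and a rotary proton pump, the V-ATPase, keeps them acidic. Transcription factors of the TFEB family (TFEB, TFE3, MITF) bind a short palindrome in the promoters of many lysosomal genes, and they leave the nucleus through the exportin XPO1, the protein that KPT-330 inhibits. In the intestine, Paneth cells and other secretory cells depend on autophagy proteins for their granules, and enterocytes hold a prominent endosomal and lysosomal system.

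Small-intestinal mouse organoids were grown in 3D and profiled as single cells with Seq-Well S3, an array-based 3′ method that counts molecules by unique molecular identifiers (UMIs). Day 0 (2 libraries) was the stem-cell-enriched medium ENR+CV, which holds EGF, Noggin, R-spondin 1, CHIR99021 (a GSK3 inhibitor) and valproic acid. In ENR+CD, DAPT (a Notch pathway inhibitor) takes the place of valproic acid, and 7 libraries of this medium alone were the controls for 8 libraries of ENR+CD with 160 nM KPT-330, at days 0.25, 1, 2, 3, 4 and 6. Every library pooled many organoids. For the day 0 group, both day 6 groups and the KPT-330 group at day 3, 2 libraries each were made, and all others are single. The labels do not say whether replicates were separate cultures, so p-values measure the spread between these libraries. The study excepts its single-cell sequencing from its rule of biological replicates, and describes a sample there as cells from many organoids of the same condition. Most days had 1 library a condition, so in the comparison over all days the days served as replicates. The spread there includes any change of the drug effect between days.

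Of 26229 barcodes in the tables, the 19877 cells named in the merged quality-controlled table were kept, 531 to 1547 a library, and the counts of each library were summed (3458887 to 12433109 UMIs a library, median 2676 to 8463 UMIs a cell, 6.31% to 18.3% mitochondrial). Between libraries, 14 kept barcodes recurred. Markers of other cells were near 0: Tyrobp had no UMI in any library, Ptprc 3 UMIs in all and Col3a1 5, while Lyz2, a gene close in sequence to the Paneth lysozyme gene Lyz1, had 2277 UMIs in all, the most of the immune list. The 7 immune genes found, summed, ran from 0.0438 to 0.327 UMIs per 10000 of the total in the controls and from 0.0350 to 0.715 with KPT-330, and neither the mesenchyme list nor the tuft list passed 0.0468 in any library. Their part in the results below was not tested.

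Levels of whole libraries below are UMIs per 10000 after TMM scaling, edgeR's adjustment for libraries in which a few genes take a large share of the counts. This scaling matters here. The TMM factors ran from 1.02 to 1.16 in the controls and from 0.708 to 1.07 with KPT-330. The 13 Paneth markers took 0.353% to 14.5% of UMIs in the controls and 0.522% to 22.5% with KPT-330. The KPT-330 libraries of day 6, replicates 1 and 2, had 22.5% and 21.7% Paneth markers and factors of 0.708 and 0.881. Their median mitochondrial shares were 16.5% and 6.31%. In every library the most abundant gene was Gm26924 or mt-Rnr2. What set the TMM factors was not tested. Scaling to plain library totals instead, an alternative chosen after seeing the data, put the median gene at -0.27 (log2) with KPT-330 over all days, against -0.00228 with TMM, so each result below that depends on the choice is given on both scales. In library sums, fewer cells of a type and less RNA per cell cannot be told apart.

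KPT-330 raised most of the lysosomal members over the whole time course. With day as a term in the fit and edgeR's quasi-likelihood test, 26 of the 44 members were raised at an adjusted p under 0.05 and 1, Wipi1, was lowered. Over all genes tested 14.4% were raised and 14.2% lowered, so the members' share in the raised direction was above the background and their share in the lowered direction below it. The members were chosen with earlier results of these data known, so this comparison is not an independent test. Daily means were higher with KPT-330 on 6 of 6 days for 26 members with TMM and for 15 on totals. No such count over all genes is given here, so whether these numbers exceed the background is not shown. The median log2 fold change was 0.44 over the members and -0.00228 over all genes tested. Scaled to library totals, 18 members were raised, all of them among the 26, and 6 were lowered (Wipi1, Npc1, Ulk1, Atg7, Scarb2 and Atg16l1), where 3.67% of all genes were raised and 38.2% lowered. The plot of fold changes by role shows both scales.

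**Figure D1:**
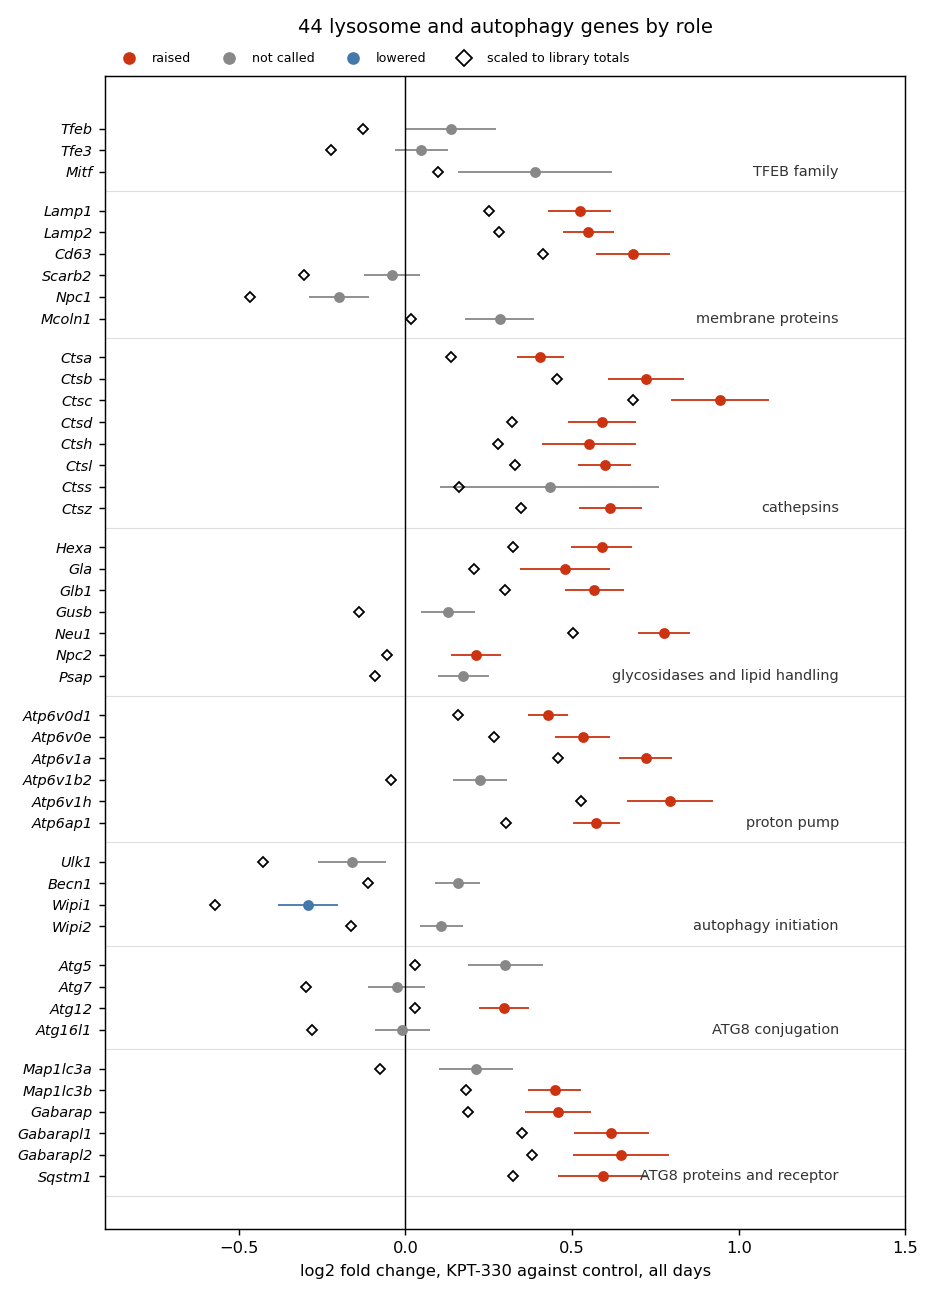
Log2 fold changes of the 44 members with KPT-330 against control over all days (horizontal axis), one gene a row in role groups; circles with bars are the TMM-scaled estimate ± SE, coloured by call, and open diamonds the estimate scaled to library totals. Cathepsins, proton pump subunits and ATG8 proteins sit to the right of 0, while autophagy initiation and conjugation genes lie on both sides of it, and every diamond is left of its circle.

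The palindrome bound by the TFEB family, TCACGTGA, which reads the same on both strands, was sought in promoter windows from 250 bases before to 50 bases after each RefSeq start (build GRCm38.p6). It was present for 7 of the 35 members with a window in the table and for 1.12% of the 27025 genes with one (2.23% of the 9452 tested genes with one). Since 35 of 44 is 79.5%, under the 80% set for such a check, the shares of members and other genes were not tested against each other. No enrichment in the members is read from them. The shorter CACGTG, which lies inside the palindrome, was present for 12 members and for 8.09% of all genes with a window (11.9% of the tested genes with one). The 9 matches of these 7 genes are shown as the letters behind these counts. All but Mcoln1 were raised by KPT-330 on the TMM scale, as were 22 of the 35 members with a window, and on totals Ctsa, Gla and Atp6v0d1 were not called either. Capitals mark the palindrome, each window is read 5′ to 3′ on the gene's strand, and a match says nothing about binding.
Ctsa, chr2:164833749-164833778, plus strand: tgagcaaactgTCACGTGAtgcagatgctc
Ctsa, chr2:164833766-164833795, plus strand: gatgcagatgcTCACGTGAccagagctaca
Ctsd, chr7:142387908-142387937, minus strand: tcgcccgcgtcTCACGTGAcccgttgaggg
Gla, chrX:134601215-134601244, minus strand: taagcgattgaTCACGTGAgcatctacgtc
Gla, chrX:134601182-134601211, minus strand: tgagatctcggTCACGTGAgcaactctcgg
Atp6v0d1, chr8:105566050-105566079, minus strand: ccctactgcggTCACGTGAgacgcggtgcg
Atp6v0e, chr17:26676387-26676416, plus strand: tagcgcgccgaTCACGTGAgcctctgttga
Atp6v1a, chr16:44139373-44139402, minus strand: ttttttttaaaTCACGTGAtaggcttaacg
Mcoln1, chr8:3500462-3500491, plus strand: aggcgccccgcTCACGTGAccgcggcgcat
In Ctsa, Atp6v0e and Atp6v0d1 the palindrome lay within 13 bases of the start, and Ctsa and Gla each held 2 copies.

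The transcription factors themselves did not pass the test. Tfeb had 1517 UMIs in all libraries together; its level was 0.0897, 0.124 and 0.135 (lowest, median and highest of the 7 controls) and 0.0949, 0.116 and 0.179 in the 8 KPT-330 libraries, a log2 fold change of 0.14 ± 0.13 (SE; adjusted p = 0.473). Tfe3 stood at 0.312, 0.402 and 0.434 in controls and 0.268, 0.405 and 0.478 with KPT-330 (log2 0.05 ± 0.08, adjusted p = 0.688). Both ranges overlapped, and scaled to totals both estimates turned negative (-0.13 and -0.22), neither past the threshold. Mitf was sparse, with 3 to 28 UMIs a library, and was estimated at 0.39 ± 0.23 (adjusted p = 0.220). Transcript counts do not show where in the cell the proteins are.

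Among the 8 cathepsins, the proteases of the lysosome, 7 were raised and Ctss was not called, with a group median of 0.59. Ctsc, an aminopeptidase that activates granule proteases, gave the largest fold change of any member (gene at chr7:88278085-88310888, plus strand, GRCm38): its level was 0.221, 0.302 and 0.525 in controls and 0.440, 0.609 and 0.819 with KPT-330 (log2 0.94 ± 0.15, adjusted p = 0.000814). In controls it fell from 0.525 at day 0.25 to 0.221 at day 4 and stood at 0.302 and 0.350 at day 6, while with KPT-330 it fell from 0.649 to 0.440 at day 2 and reached 0.802 and 0.819 at day 6. The daily difference (log2) was 0.31 at day 0.25 and 1.54 at day 4.

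Ctsb, an abundant cysteine cathepsin, lay at 3.15, 3.55 and 4.80 in controls and at 3.94, 7.32 and 8.26 with KPT-330 (log2 0.72 ± 0.11, adjusted p = 0.000892). At days 0.25 and 1 the libraries were close (3.44 and 3.15 without, 4.10 and 3.94 with the drug), and from day 2 every KPT-330 library, at 6.39 or more, was above every control library. Ctsl, another cysteine cathepsin, was at 0.241, 0.593 and 1.06 and 0.382, 0.803 and 1.91 (log2 0.60 ± 0.08, adjusted p = 0.000387), with control and drug both rising with day. The aspartic protease Ctsd was at 1.72, 3.09 and 3.62 and 2.05, 4.74 and 5.82 (log2 0.59 ± 0.10, adjusted p = 0.00147). Its late ranges did not overlap, at 2.58 to 3.62 in controls and above that in all 5 late KPT-330 libraries.

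Ctsz, a carboxypeptidase, was at 1.84, 2.18 and 2.88 in controls and 2.27, 3.72 and 4.68 with the drug (log2 0.62 ± 0.09, adjusted p = 0.000799). The aminopeptidase Ctsh was at 0.423, 0.662 and 0.865 and 0.655, 0.919 and 1.23 (log2 0.55 ± 0.14, adjusted p = 0.0112). Ctsa, the protective carboxypeptidase that forms a complex with the sialidase Neu1, was at 1.33, 1.83 and 2.18 and 1.62, 2.36 and 2.74 (log2 0.41 ± 0.07, adjusted p = 0.00142). All 7 raised cathepsins had higher daily means with KPT-330 on 6 of 6 days. On totals 5 of them did, Ctsh was higher on 5 days and Ctsa on 4, and neither of this pair was called (0.28 and 0.14). Ctss had 601 UMIs in all and was estimated at 0.43 ± 0.33 (adjusted p = 0.340).

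**Figure D2:**
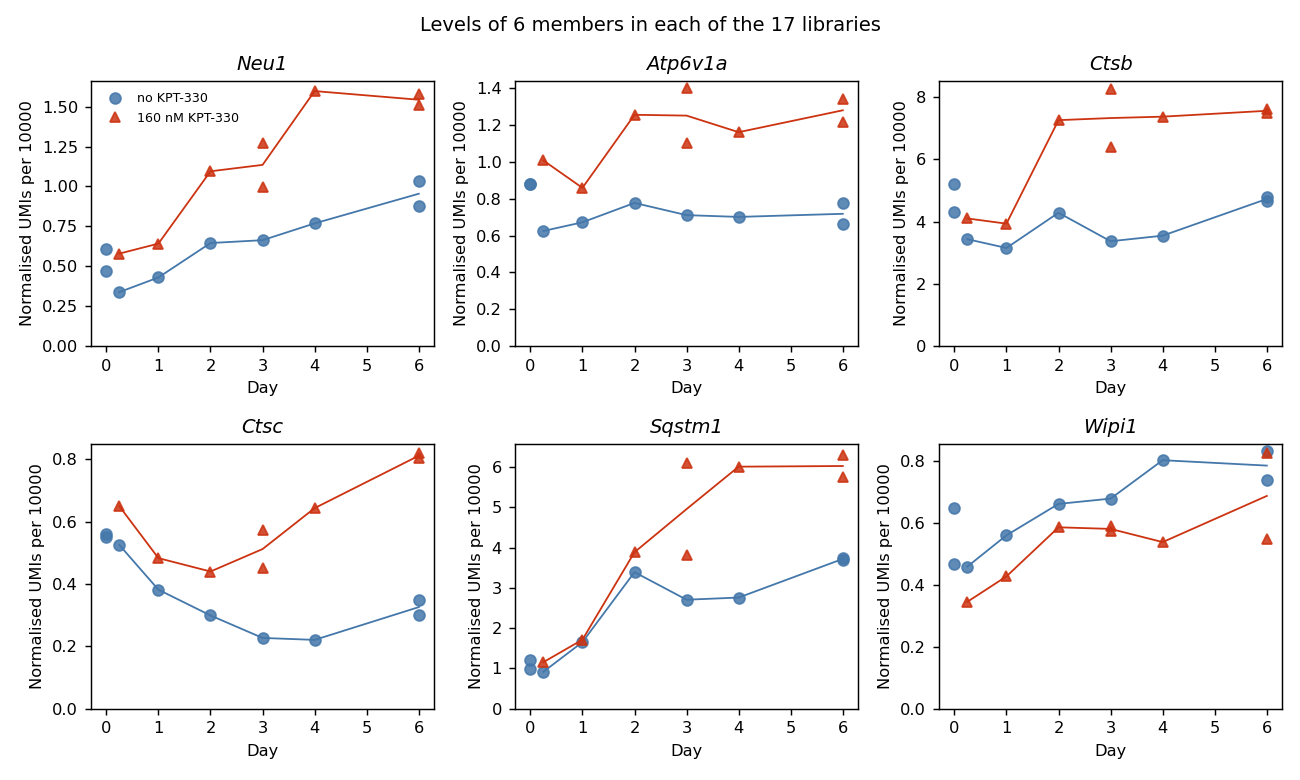
Levels in normalised UMIs per 10000 (vertical axis, from 0) by day (horizontal axis) for 6 members; circles are libraries without KPT-330 (day 0 is ENR+CV), triangles libraries with 160 nM KPT-330, and lines join daily means from day 0.25. Neu1 and Atp6v1a are above control on every day, Ctsb parts from control from day 2 on, Ctsc and Sqstm1 most after day 2, and Wipi1 is below control, with 1 of the KPT-330 libraries at day 6 within the control values.

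Of the 7 glycosidases and lipid-handling proteins, 5 were raised, with a group median of 0.48. Neu1, the lysosomal sialidase, had the smallest p of all members (gene at chr17:34931253-34935953, plus strand): its level was 0.338, 0.663 and 1.03 in controls and 0.579, 1.18 and 1.60 with KPT-330 (log2 0.78 ± 0.08, adjusted p = 6.80e-05). On each of the 6 days the KPT-330 value was above control on both scales, with TMM by 0.58 to 1.06 on the log2 scale, and the difference was already 0.78 at day 0.25 (0.579 against 0.338). Neu1 rose with day in controls as well, so the ranges over all days overlapped.

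Hexa, the alpha subunit of beta-hexosaminidase, was at 0.849, 1.06 and 1.72 in controls and 1.05, 1.61 and 3.05 with the drug (log2 0.59 ± 0.09, adjusted p = 0.000808). Glb1, the lysosomal beta-galactosidase, was at 0.585, 0.920 and 1.07 and 0.655, 1.40 and 1.60 (log2 0.57 ± 0.09, adjusted p = 0.000857), and its gene overlaps Tmppe on the same strand, so reads between them may be shared. Gla, alpha-galactosidase A, was at 0.102, 0.184 and 0.244 and 0.125, 0.273 and 0.379 (log2 0.48 ± 0.13, adjusted p = 0.0184; 0.21 and not called on totals). Hexa and Gla were just under control at day 0.25 (-0.01 and -0.08, log2) and above it on the other 5 days.

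Npc2, which carries cholesterol to the membrane exporter Npc1, passed the test narrowly at 2.50, 3.47 and 3.72 against 3.00, 3.90 and 4.50 (log2 0.21 ± 0.07, adjusted p = 0.0483). This call was lost in 17 of the 21 alternatives run, and on totals its sign turned (-0.06). Gusb, beta-glucuronidase, and Psap, the precursor of the saposins that present lipids to hydrolases, were not called (0.13 ± 0.08 and 0.17 ± 0.08, adjusted p = 0.254 and 0.102).

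Of the 6 proton pump members 5 were raised, with a group median of 0.55. Atp6v1a, the catalytic subunit that hydrolyses ATP, (gene at chr16:44085402-44139705, minus strand) was at 0.625, 0.702 and 0.778 in controls and 0.860, 1.19 and 1.40 with KPT-330 (log2 0.72 ± 0.08, adjusted p = 0.000134). Atp6v1h, a regulatory subunit of the same sector, was at 0.320, 0.384 and 0.435 and 0.463, 0.678 and 0.896 (log2 0.79 ± 0.13, adjusted p = 0.00107). These 2 were the only members whose 8 KPT-330 libraries all lay above all 7 controls on the TMM scale, whatever the day. How many of all genes did the same is not given here. Atp6v1h stood highest at day 0.25, with 0.896 against 0.320 (436 and 271 UMIs, 1 library each), and at day 1 it was at 0.463 against 0.369.

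The accessory subunit Atp6ap1 was at 0.435, 0.777 and 0.951 in controls and 0.528, 1.19 and 1.60 with the drug (log2 0.57 ± 0.07, adjusted p = 0.000272). The membrane sector subunit Atp6v0e was at 0.699, 0.952 and 1.06 and 0.986, 1.28 and 1.52 (log2 0.53 ± 0.08, adjusted p = 0.000799). Atp6v0d1, of the same sector, was at 0.441, 0.897 and 1.05 and 0.651, 1.23 and 1.35 (log2 0.43 ± 0.06, adjusted p = 0.000485; 0.16 and not called on totals). All 5 were higher on 6 of 6 days, while on totals Atp6v0e was higher on 5 days and Atp6v0d1 on 4. Atp6v1b2, the partner of the catalytic subunit, was not called (0.22 ± 0.08, adjusted p = 0.0533).

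Of the 6 membrane proteins 3 were raised, and the group median was 0.40. Lamp1, a heavily glycosylated protein of the lysosomal membrane, was at 4.06, 4.44 and 5.98 in controls and 5.30, 6.83 and 8.45 with KPT-330 (log2 0.52 ± 0.09, adjusted p = 0.00193). Lamp2, its relative that also serves chaperone-mediated autophagy, was at 1.63, 2.47 and 3.59 and 2.12, 3.93 and 4.89 (log2 0.55 ± 0.08, adjusted p = 0.000493). The tetraspanin Cd63 was at 1.58, 2.75 and 5.24 and 2.19, 4.60 and 7.43 (log2 0.68 ± 0.11, adjusted p = 0.00106). All 3 were higher on 6 of 6 days and raised on both scales. Scarb2, a sorting receptor of the lysosomal membrane, gave -0.04 ± 0.08, the cholesterol exporter Npc1 -0.20 ± 0.09 and the calcium channel Mcoln1 0.28 ± 0.10 (adjusted p = 0.750, 0.112 and 0.0536), and none of the 3 was called.

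In library sums the autophagy genes split by role. Of the 6 ATG8 proteins and receptor, 5 were raised (group median 0.53). Gabarapl1 was at 0.282, 0.492 and 0.586 in controls and 0.419, 0.764 and 1.19 with the drug (log2 0.62 ± 0.11, adjusted p = 0.00203), Gabarapl2 at 0.0828, 0.137 and 0.204 and 0.127, 0.236 and 0.275 (log2 0.65 ± 0.14, adjusted p = 0.00600). Gabarap was at 2.27, 3.80 and 4.53 and 3.41, 5.0 and 5.87 (log2 0.46 ± 0.10, adjusted p = 0.00486), and Map1lc3b (LC3B) at 0.379, 0.833 and 0.941 and 0.611, 1.06 and 1.38 (log2 0.45 ± 0.08, adjusted p = 0.00184); neither of this pair was called on totals (0.19 and 0.18). These small ubiquitin-like proteins are joined to the growing autophagosome membrane. Sqstm1, which encodes the cargo receptor p62, was at 0.917, 2.76 and 3.74 and 1.16, 4.81 and 6.31 (log2 0.59 ± 0.14, adjusted p = 0.00702). At days 0.25, 1 and 2 the Sqstm1 difference was 0.33, 0.05 and 0.20 (log2), and at days 3, 4 and 6 it was 0.87, 1.12 and 0.70. Sqstm1, Ctsb and Ctsz are highest in enterocyte-like cells, described below, whose share was 10.2% in the control and 28.1% and 31.1% with KPT-330 at day 3, 3.68% and 12.4% at day 4, and 6.95% and 2.02% against 6.34% and 2.30% at day 6. The part of this in the library sums was not tested. Within enterocyte-like cells Sqstm1 was estimated at -0.19 and not called, while Ctsb (0.73) and Ctsz (0.39) were raised there. Map1lc3a was not called (0.21 ± 0.11, adjusted p = 0.166). Within the 6 cell types described below, Sqstm1 was raised in 2 and Gabarapl1 in 1, while Map1lc3b, Gabarap and Gabarapl2 were raised in 0. The estimates of these 5 genes were positive in 5 or 6 of the types.

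Among the 4 genes that start autophagosomes and the 4 that attach ATG8 proteins, 1 was lowered and 1 raised. Wipi1, which binds the phosphoinositide of the forming autophagosome, was at 0.459, 0.678 and 0.831 in controls and 0.345, 0.560 and 0.826 with KPT-330 (log2 -0.29 ± 0.09, adjusted p = 0.0284), lower on 6 of 6 days. Without the libraries of day 3, or of day 4, 0 members were called lower, and without those of day 0.25 there were 3. Wipi1 was highest in stem-like cells, described below, whose share was lower with KPT-330 from day 3; the part of this in the result was not tested, and within the 6 cell types Wipi1 was negative in all and called in none. The kinase Ulk1 gave -0.16 ± 0.10, Becn1 (Beclin 1, of the lipid kinase complex) 0.16 ± 0.07 and Wipi2 0.11 ± 0.07 (adjusted p = 0.252, 0.0959 and 0.230), and none was called. In the conjugation group only Atg12 was raised, at 0.475, 0.552 and 0.609 against 0.550, 0.661 and 0.817 (log2 0.30 ± 0.08, adjusted p = 0.0117; 0.03 and not called on totals). Its partners Atg5 and Atg16l1 and the activating enzyme Atg7 gave 0.30 ± 0.11, -0.01 ± 0.08 and -0.03 ± 0.08 (adjusted p = 0.0586, 0.942 and 0.847).

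A list of 113 further genes of the pathway, none of them members, served as a wider view, and 107 were tested. Over all days 46 were raised by edgeR's test and the other 61 were not called, against 14.4% of all genes raised and 14.2% lowered. The median log2 fold change was 0.22. On totals 11 were raised and 15 lowered, where 3.67% of all genes were raised and 38.2% lowered. By group, 8 of 11 proton pump genes, 10 of 28 hydrolases, 7 of 14 membrane and transport genes, 7 of 16 nutrient-sensing genes and 14 of 38 autophagy genes were raised. The smallest p belonged to Tpp1, a lysosomal tripeptidyl peptidase (0.260, 0.509 and 0.628 in controls, 0.401, 0.920 and 1.11 with KPT-330, log2 0.78 ± 0.08, adjusted p = 6.80e-05). Rragd, a Rag GTPase of the nutrient-sensing complex on the lysosome, had the largest of the fold changes named (0.289, 0.411 and 0.796 and 0.754, 1.03 and 1.46, log2 1.26 ± 0.14, adjusted p = 0.000140). Also named by the rule were the pump subunit Atp6v0b (log2 0.69 ± 0.08, adjusted p = 0.000251) and the folliculin partner Fnip1 (0.72 ± 0.09, 0.000364), and all 4 were higher on 6 of 6 days on both scales.

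Whether the response built up over time was asked by fitting the effect of KPT-330 separately for early days (0.25 and 1) and late days (3, 4 and 6). On early days 0 members were raised and 0 lowered by edgeR's test, 15 had an unadjusted p under 0.05, all positive (1114 of all 13303 genes, in either direction), and DESeq2 called 0. In all, 0.0526% of all genes were raised and 0% lowered. The early estimates were positive for 38 of 44 members, with a median of 0.32, led in p by Neu1 (0.70 ± 0.17, adjusted p = 0.251), Atp6v0d1 (0.51 ± 0.13, 0.271) and Atp6v1h (0.96 ± 0.26, 0.342). Each arm had 1 library a day at that stage.

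On late days 26 members were raised and 0 lowered (3 negative members had an unadjusted p under 0.05, and DESeq2 raised 24 and lowered 0), against 13.5% and 12.3% of all genes, with a median of 0.44. Of the 26 raised, 25 were also among the members raised over all days; Atg5 joined (0.43 ± 0.15, adjusted p = 0.0498) and Npc2 dropped out. The largest late values were those of Ctsc (1.33 ± 0.11, adjusted p = 5.30e-05), Ctsb (0.91 ± 0.13, 0.000727), Sqstm1 (0.86 ± 0.14, 0.00185) and Neu1 (0.82 ± 0.11, 0.000554). Scaled to totals, 8 members were raised (Ctsc, Ctsb, Sqstm1, Atp6v1a, Neu1, Cd63, Ctsz and Hexa) and 6 lowered, the same 6 as over all days, against 2.62% and 40.3% of all genes. For 18 members all 5 late KPT-330 libraries lay above all 4 late controls on the TMM scale. Wipi2 was the only one of these not called. How many of all genes separated in this way is not given here, so this count has no background to be set against.

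The difference itself, late minus early, passed the test for 0 members and for 0% of all genes in either direction by edgeR, with 4 members at an unadjusted p under 0.05 and 0 by DESeq2. At that unadjusted threshold stood 1450 of all 13303 genes, so the members' share was no higher than that of all genes. The values of the 4 were those of Ctsc (0.98 ± 0.20, adjusted p = 0.158), Ctsb (0.60 ± 0.22, 0.345), Sqstm1 (0.64 ± 0.26, 0.385) and Hexa (0.44 ± 0.19, 0.439). A call on late days and none on early days is thus not a difference shown between the periods.

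The members also differed between days without the drug. In libraries without KPT-330, late against early days, 18 members were raised and 1, Ctsc, was lowered, against 18.4% and 20.5% of all genes, with a median of 0.44. Without day 0.25, 6 were raised and 0 lowered, and without day 6, 10 were raised and 3 lowered. Both early libraries carry replicate number 1 and those of days 3 and 4 number 2, so time and replicate number go largely together. With the replicate number as a block, 10 were raised, all among the 18, and 0 lowered. Ctsl rose from 0.241 to 0.287 in the early pair to 0.593 to 1.06 in the 4 late libraries (log2 1.63 ± 0.25, adjusted p = 0.000729). Sqstm1 rose from 0.917 to 1.65 to 2.71 to 3.74 (log2 1.32 ± 0.26, adjusted p = 0.00247) and Neu1 from 0.338 to 0.430 to 0.663 to 1.03 (log2 1.11 ± 0.21, adjusted p = 0.00198). None of these ranges overlapped.

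Map1lc3a (LC3A) had the largest rise of any member, from 0.0698 to 0.120 early to 0.208 to 0.372 late (log2 1.65 ± 0.40, adjusted p = 0.00800). Mitf rose too, on few UMIs, from 0.00591 to 0.00926 to 0.0169 to 0.0280 (log2 1.61 ± 0.51, adjusted p = 0.0264). Wipi1 rose with time (0.58 ± 0.17, adjusted p = 0.0219) and was lowered by KPT-330, while Ctsc fell with time (-0.73 ± 0.21, adjusted p = 0.0159) and was raised by KPT-330. The other raised members were Gabarapl1, Atp6v0d1, Atp6ap1, Map1lc3b, Ctsd, Glb1, Lamp2, Cd63, Atp6v1b2, Wipi2, Gla and Ctsa, at 0.43 to 0.95. Of the 107 wider genes, 40 were raised and 3 lowered (Gnptab, M6pr and Lamtor4), against 18.4% and 20.5% of all genes. In the same libraries the share of Paneth-like cells went from 0.876% at day 0.25 to 50.3% and 43.8% at day 6, and its part in these changes was not tested. The comparison with KPT-330 and this one share the control libraries.

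**Figure D3:**
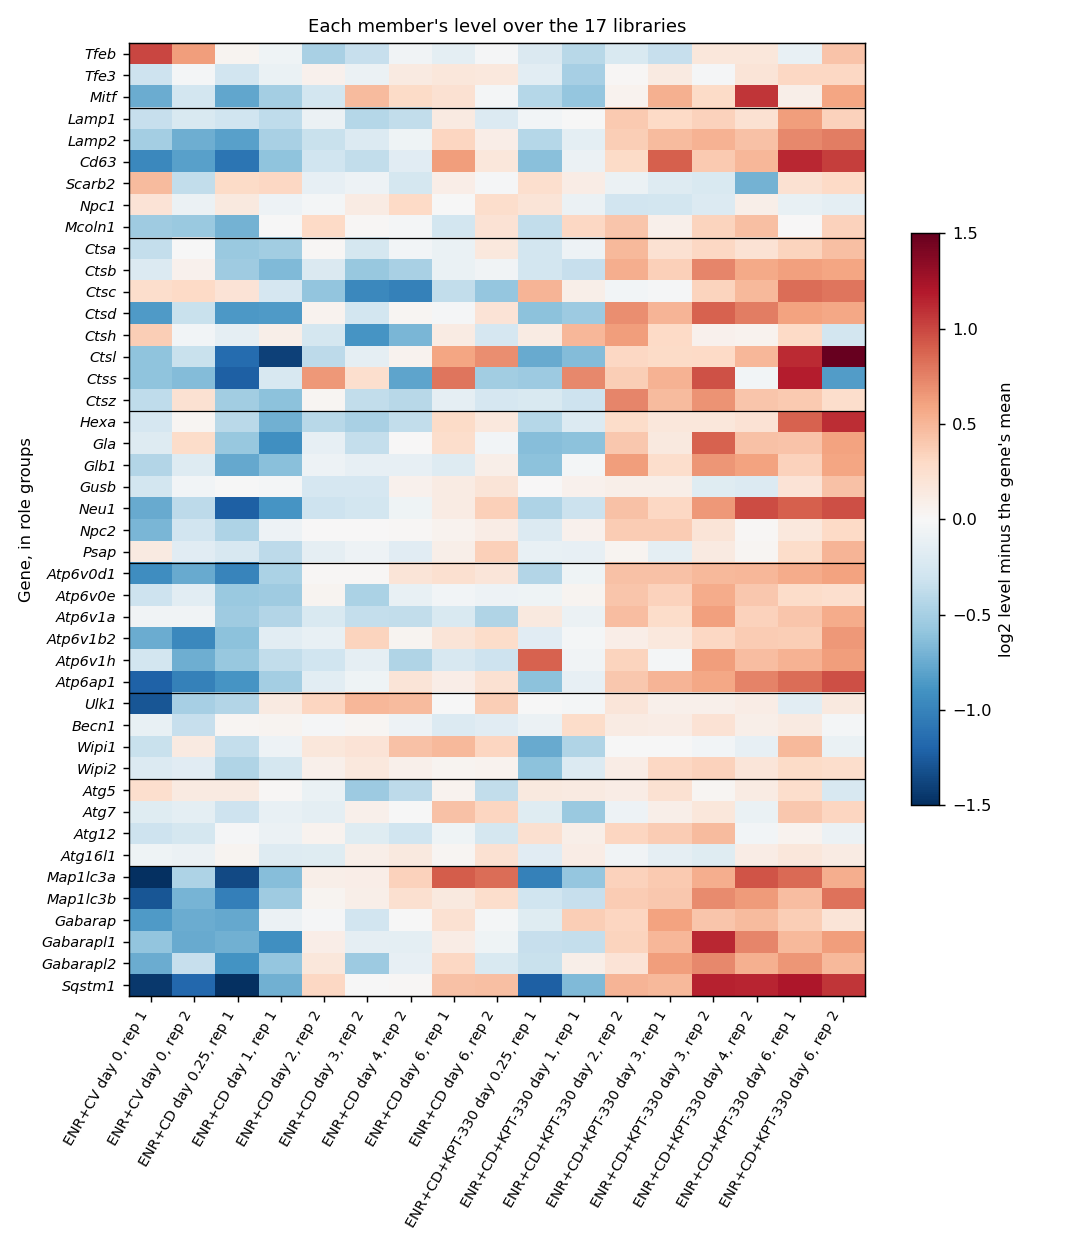
Each row is a member and each column a library, first the 9 without KPT-330 and then the 8 with it, each by day; colour is the log2 normalised level minus the gene's mean over the 17 libraries, blue lower and red higher, ending at 1.5 either way. Sqstm1, Ctsl, Neu1 and Map1lc3b go from blue to red with day in both arms, and reach deeper red with KPT-330.

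Cells were clustered on genes that left out the pathway genes among the variable ones, and clusters were named from marker lists. Stem-like cells (2103) were 1 cluster, led by Clu, Notum, Gif, Ifitm1, Vim, Tnfrsf19, Pls3, Cdh13, Vwa2 and Nkd1, in that order. Of these 10 only Tnfrsf19 and Nkd1 are on the stem marker list. Their marker score was highest for the stem list (1.61) and next for the tuft list (1.34). At day 0, in the stem-cell medium, stem-like cells were only 0.188% and 0.273% of cells. From day 3 their share was 13.8% to 29.7% in controls and 1.42% to 9.79% with KPT-330. Paneth-like cells (5927) joined 2 clusters, of which 1 had as many goblet as Paneth markers among its 10 leading genes. Enterocyte-like cells (3040) joined 3 clusters, of which that led by Apoa1 and Apoa4 drew 73.1% of its cells from KPT-330 libraries. Cycling-like cells numbered 2511, goblet-like 1766 and enteroendocrine-like 2421, and 2109 cells were left unnamed. The enteroendocrine-like cells joined 2 clusters, 1 of 1280 cells led by Neurog3 and 1 of 1141 cells led by Gcg and Cck. Of their cells 27.4% and 44.1% came from KPT-330 libraries. Doublets had been removed by the authors, by inspection and DoubletFinder, before the merged table was made, and no further caller was run. By library the Paneth-like share on day 6 was 50.3% and 43.8% in controls and 67.9% and 62.8% with KPT-330.

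Without KPT-330 the members were spread over the types in different patterns, given here as a description over libraries with at least 20 cells of a type (UMIs per 10000 of the type's total). The mean was highest in enterocyte-like cells for 14 members, in stem-like and in enteroendocrine-like cells for 12 each, in Paneth-like cells for 4, in cycling-like cells for 2 and in goblet-like cells for none. Ctss was highest by far in enterocyte-like cells, at 0.234 ± 0.224 (SD, 9 libraries), 14.2 times the mean of the other types and highest there in 9 of 9 libraries. Ctsz (4.86 ± 1.53) and Ctsb (7.38 ± 2.13) were also highest there in 9 of 9, and Sqstm1 (5.31 ± 3.02) in 8 of 9. These means pool the days with enough cells, which differ between types: stem-like and Paneth-like cells enter with 6 libraries each, from day 1 on.

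Enteroendocrine-like cells led in Atp6v1b2 (2.61 ± 0.855, 2.20 times the others, highest in 8 of 8 libraries), followed in ratio by Ulk1 (1.81 times, highest in 4 of 8) and Ctsl (1.70 times, highest in 5 of 8). In stem-like cells the first 3 were Wipi1 (1.56 ± 0.158, 2.25 times, highest in 5 of 6), Ctsl (2.01 times, highest in 2 of 6) and Psap (1.94 times, highest in 4 of 6). In Paneth-like cells they were Cd63 (4.93 ± 0.951, 1.73 times, highest in 3 of 6), Atg7 (1.55 times, highest in 4 of 6) and Glb1 (1.31 times, highest in 1 of 6). Cd63 and Glb1 were also among the first 3 of goblet-like cells (1.41 and 1.23 times, highest in 5 and 2 of 9), with Ctsc (1.25 times, highest in 1 of 9). In cycling-like cells they were Gusb (1.32 times, highest in 5 of 9), Ctsc (1.31 times, highest in 2 of 9) and Atg5 (1.12 times, highest in 1 of 9). Mitf, under the level set for this ranking, was 4.37 times the others in Paneth-like cells (0.0490 ± 0.0174).

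**Figure D4:**
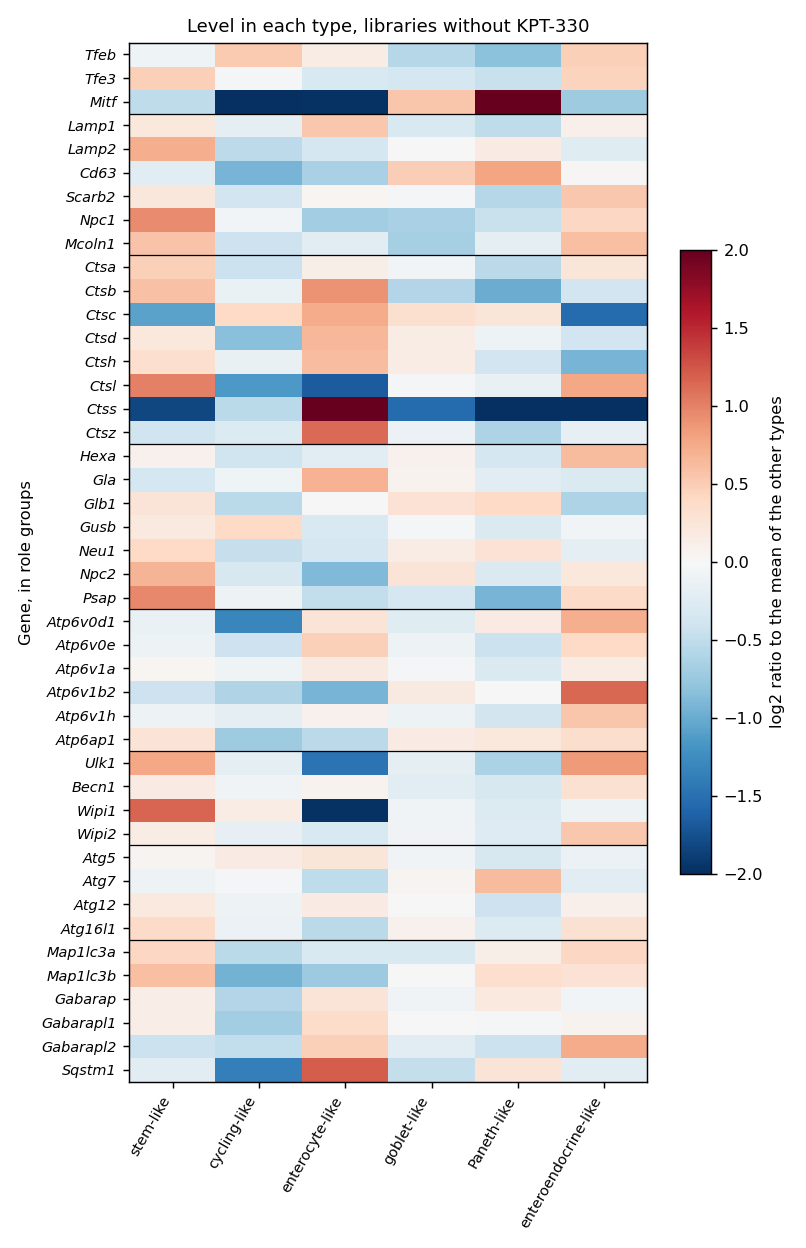
Log2 ratio of each member's mean level in a cell type to the mean of the other types, in libraries without KPT-330; rows are members in role groups, columns the 6 types, and colour ends at 2 either way. Ctss, Sqstm1 and Ctsz are reddest in enterocyte-like cells, Wipi1 in stem-like cells and Atp6v1b2 in enteroendocrine-like cells.

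KPT-330 was then compared with control within each type, on sums over the cells of a type in each library. Members were raised in 5 of 6 types and lowered in none. Ctsb was raised in all 5, Lamp2, Cd63, Hexa, Neu1, Atp6v1a and Atp6ap1 in 4, and 22 members in none, among them the TFEB family, Gusb, all 4 initiation genes and 4 of the 6 ATG8 proteins and receptor. Of the members raised over all days in library sums, Gla, Atp6v0d1, Map1lc3b, Gabarap and Gabarapl2 were raised in no type. Their estimates were positive in 5 or 6 types. Each count below is by edgeR's test over all genes of that type.

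In stem-like cells (12 libraries, 5 days) 17 of 42 tested members were raised and 0 lowered (0 negative members at an unadjusted p under 0.05; DESeq2 raised 15 and lowered 0), against 2.77% and 1.65% of all genes, with a median of 0.44. Ctsl went from 1.26 ± 0.601 to 2.62 ± 1.69 (SD, 6 libraries each; log2 1.28 ± 0.14, adjusted p = 1.48e-08). Hexa (1.03 ± 0.13, 2.42e-07), Atp6ap1 (1.01 ± 0.15, 8.11e-06) and Ctsd (0.97 ± 0.14, 6.25e-06) followed. The others raised were Ctsa, Ctsb, Ctsz, Neu1, Atp6v1a, Atp6v1h, Lamp2, Glb1, Psap, Cd63, Npc2, Atp6v0e and Lamp1, at 0.48 to 0.89. None of the ATG8 proteins or autophagy initiation genes was called here.

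In Paneth-like cells (13 libraries, 5 days) 16 of 43 were raised and 0 lowered (1 negative member at an unadjusted p under 0.05; DESeq2 raised 17 and lowered 0), against 3.01% and 2.35% of all genes, with a median of 0.29. Ctsc led, from 0.369 ± 0.108 (6 libraries) to 0.572 ± 0.226 (7 libraries; log2 0.86 ± 0.11, adjusted p = 0.000107). Its effect did not pass a test of difference from that in stem-like cells (stem-like minus Paneth-like -0.08 ± 0.31, adjusted p = 0.973) or enterocyte-like cells (enterocyte-like minus Paneth-like -0.62 ± 0.20, adjusted p = 0.125). Ctsl (0.74 ± 0.11, 0.000461), Atp6v1a (0.65 ± 0.11, 0.000997) and Atp6v1h (0.60 ± 0.14, 0.0120) came next, and Sqstm1 (0.53 ± 0.11, 0.00894) and Gabarapl1 (0.57 ± 0.13, 0.0155) were raised as well. The others were Hexa, Ctsb, Atp6ap1, Neu1, Cd63, Lamp2, Ctsa, Lamp1, Ctsd and Ctsz, at 0.32 to 0.55. At a clustering resolution of 0.8, 7 members were called. On totals 6 were raised (Ctsc, Ctsl, Atp6v1a, Atp6ap1, Hexa and Ctsb), against 1.26% of all genes, and 1 member, Atg7, was lowered.

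In enterocyte-like cells (15 libraries, 6 days) 12 of 43 were raised and 0 lowered (0 negative at an unadjusted p under 0.05; DESeq2 raised 13 and lowered 0), against 1.98% and 2.2% of all genes. Neu1 went from 0.631 ± 0.268 (9 libraries, day 0 included) to 1.23 ± 0.873 (8 libraries; log2 0.96 ± 0.15, adjusted p = 0.000477) and Ctsb from 7.38 ± 2.13 to 12.3 ± 5.78 (0.73 ± 0.11, 0.000328). The others were Atp6v1h, Hexa, Cd63, Atp6ap1, Lamp2, Glb1, Lamp1, Atg12, Atp6v1a and Ctsz, at 0.39 to 0.75. Sqstm1, highest in this type without the drug, stood at 5.31 ± 3.02 without and 5.31 ± 2.63 with it and was not called (-0.19 ± 0.12, adjusted p = 0.459). On totals 5 were called, against 1.15% of all genes raised.

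In goblet-like cells (14 libraries, 6 days) 7 of 41 were raised and 0 lowered (0 negative at an unadjusted p under 0.05; DESeq2 raised 6 and lowered 0), against 1.64% and 0.792% of all genes: Ctsh (0.73 ± 0.15, adjusted p = 0.00596), Ctsl, Cd63 (0.67 ± 0.13, 0.00357), Neu1, Atp6v0e, Ctsb and Sqstm1, at 0.44 to 0.73. Without replicate 1 of the day 3 KPT-330 group 12 were called in goblet-like cells. In enteroendocrine-like cells (13 libraries, 5 days) 6 of 42 were raised and 0 lowered (0 negative at an unadjusted p under 0.05; DESeq2 raised 8 and lowered 0), against 0.863% and 1.16%: Glb1 (0.80 ± 0.13, adjusted p = 0.00198), Hexa, Lamp2, Atp6ap1, Atp6v1a and Ctsb, at 0.52 to 0.80. In cycling-like cells, with 6 libraries on 3 days, 0 of 41 were called by edgeR and 0 by DESeq2, with 11 at an unadjusted p under 0.05 and a median of 0.24, against 0.177% of all genes raised and 0.0662% lowered. The wider list gave 18 raised of 98 tested genes in stem-like, 14 of 103 in Paneth-like and 13 of 100 in enterocyte-like cells. Of all genes 2.77%, 3.01% and 1.98% were raised there. It gave 6 of 102 in enteroendocrine-like, 5 of 90 in goblet-like and 0 of 95 in cycling-like cells. Only 1 gene was lowered, the mitophagy receptor gene Bnip3, in Paneth-like cells. On totals 13, 4, 5, 4, 5 and 0 were raised in the same order of types, and Bnip3 and Tecpr1 were lowered in Paneth-like cells. Of all genes on totals, 199 of 9150, 132 of 10479, 106 of 9236, 57 of 9736, 117 of 8464 and 20 of 9064 were raised, again in that order. In Paneth-like cells 802 of all 10479 genes were lowered.

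**Figure D5:**
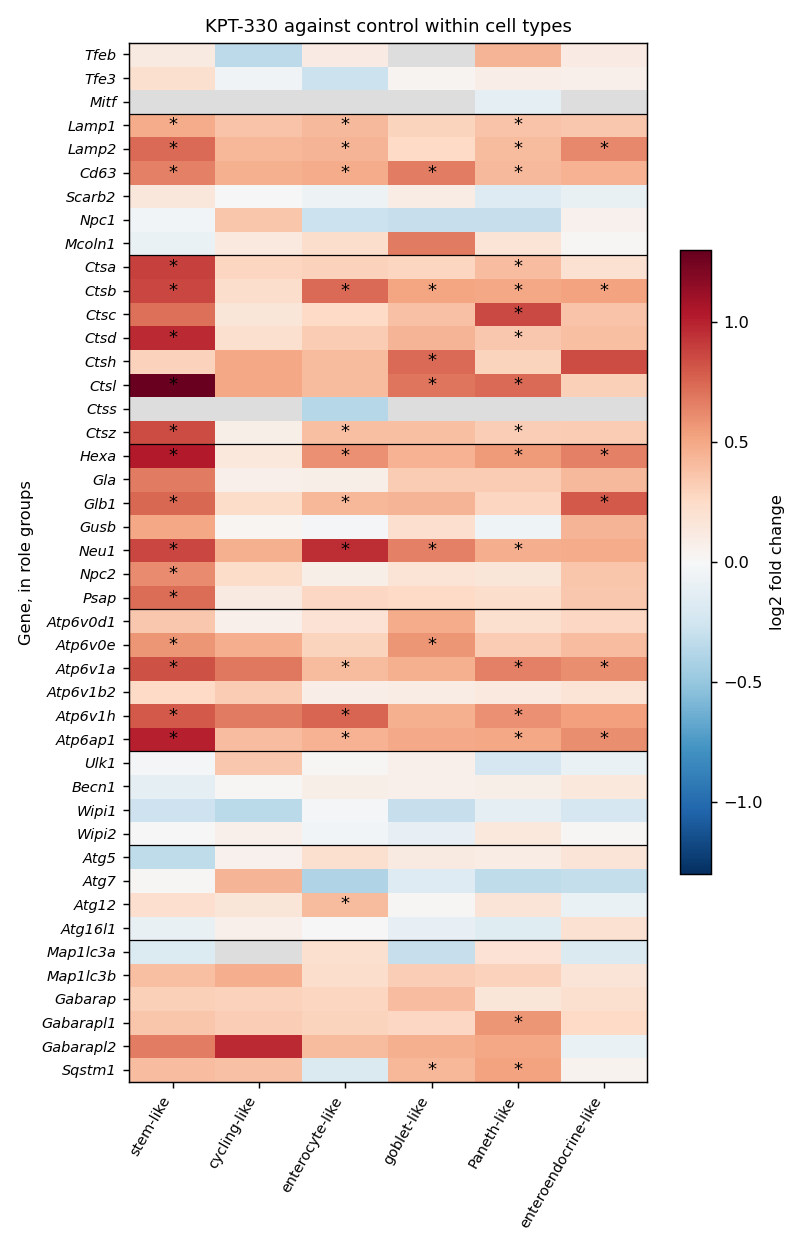
Log2 fold change with KPT-330 against control within each of 6 cell types (columns) for each member (rows, in role groups); asterisks mark an adjusted p under 0.05 by edgeR, grey cells were not tested. The stem-like column is reddest, with Ctsl at 1.28, and the rows of autophagy initiation and conjugation hold 1 asterisk, for Atg12.

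Differences between types in the size of the response were tested in fits over 2 types of the same libraries, added after the data were seen. The effect of KPT-330 was larger in stem-like than in Paneth-like cells for 7 of 42 members, against 1.87% of all genes called in either direction: Ctsd (log2 difference 0.64 ± 0.12, adjusted p = 0.000478), Psap, Ctsz, Atp6ap1, Npc2, Ctsb and Ctsa, at 0.44 to 0.57 for the last 6. Against enterocyte-like cells it was larger in stem-like cells for 3 of 43 (Npc2 0.62 ± 0.16, Ctsa 0.56 ± 0.15 and Ctsd 0.54 ± 0.15; adjusted p = 0.00909, 0.0251 and 0.0353), against 1.71% of all genes. Between enterocyte-like and Paneth-like cells 2 of 44 differed, against 1.89%: Neu1 responded more in enterocyte-like cells (0.62 ± 0.16, adjusted p = 0.0258) and Sqstm1 more in Paneth-like cells (-0.63 ± 0.15, adjusted p = 0.0132). Leaving out 1 replicate of the day 3 or day 6 groups left 4 to 10 of 42, 1 to 4 of 43 and 1 to 3 of 44 called. The lowest counts of the first 2 came without replicate 1 of the day 6 controls or replicate 2 of the day 3 KPT-330 group, and that of the last without either day 6 control or replicate 2 of the day 6 KPT-330 group.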

How the data were processed

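Single-cell libraries of 3D mouse intestinal organoids were made by Seq-Well S3. The authors deposited UMI counts per gene and cell, which they derived with bcl2fastq and the Drop-seq pipeline on mm10, with no normalization. Cells named in the authors' merged table were kept, and raw counts were summed per library, or per library and cell type where a type had at least 20 cells. Genes were filtered with filterByExpr and scaled by TMM, and edgeR 4.0.16 (quasi-likelihood, day as a factor, R 4.3.3) tested each comparison with Benjamini-Hochberg adjustment over all genes at 0.05. Cells were clustered with Seurat 5.3.0 and sctransform 0.4.2, without the pathway genes among the variable genes, and named from marker lists. Calculations were checked by testing on simulated data.

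The members and lists were chosen with earlier results of these data known. Named were the TFEB family, every member past the threshold over all days or in the late minus early difference, the 5 genes of the wider list with the smallest p in each direction, the members called in a type, and for each type the 3 members of at least 0.2 UMIs per 10000 with the highest ratio to other types. The result for 1 gene that this rule names is not reported here. Other members named, such as those quoted as not called, were added after their values were seen. Alternatives were DESeq2 1.42.0, other size factors, count filters, cell filters, clusterings, a replicate block and leaving out libraries or days. Scaling to library totals and the tests between cell types were chosen after seeing the data. Depth per library is given in the text, and counts of molecules limit the sparse members most (Mitf, Ctss).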

Additional observations from a re-analysis of the deposited data

Results flagged for a closer look

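The effect of KPT-330 differed between cell types in 12 tests of the difference itself (edgeR, fits over both types of the same libraries, adjusted p under 0.05). It was larger in stem-like than in Paneth-like cells for 7 members, by (log2) 0.64 for Ctsd, 0.57 for Psap, 0.55 for Ctsz, 0.53 for Atp6ap1, 0.46 for Npc2, 0.45 for Ctsb and 0.44 for Ctsa. It was larger in stem-like than in enterocyte-like cells for Npc2 (0.62), Ctsa (0.56) and Ctsd (0.54). Between enterocyte-like and Paneth-like cells the difference was 0.62 for Neu1 and -0.63 for Sqstm1. The number of members called fell to 4 and to 1 for the 2 stem-like comparisons without replicate 1 of the day 6 controls or without replicate 2 of the day 3 KPT-330 group, and to 1 for the last comparison without either day 6 control or without replicate 2 of the day 6 KPT-330 group.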

How the results depend on the processing

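Scaling to library totals had the widest reach: over all days 6 members were lowered and Npc2 reversed (-0.0556), on late days 8 were raised and 6 lowered, and 5 members were called in enterocyte-like and 7 in Paneth-like cells. With a replicate block 1 member was lowered on late days, 10 were raised and 0 lowered over time in controls, and 15 were called in goblet-like and 10 in enteroendocrine-like cells; it moved no other count by over 1.5 times. Same-numbered libraries of the groups with 2 replicates had correlated deviations of -0.085 to 0.578, with 3 of the 6 group pairs above 0.1 (0.578 between both day 6 groups, 0.159 and 0.145 between these and day 0). The labels give the numbers no shared origin, so whether they pair the libraries is unknown. Without a count filter 1 member was raised on early days and 1 in the late minus early difference. With day 2 among the late days 1 member was lowered, and with day 0 among the early days 3 were lowered over time in controls. A marker score per cell gave 1 called member in cycling-like and 12 in goblet-like cells, and a clustering resolution of 0.8 gave 7 in Paneth-like cells.

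Leaving out a library or day gave 24 to 27 raised and 0 to 3 lowered members over all days, 0 raised and 0 lowered early, 19 to 26 raised and 0 to 2 lowered late, and 0 of either in the late minus early difference. Over time in controls it gave 6 to 20 raised and 0 to 3 lowered, with 6 raised and 0 lowered without day 0.25, and 10 raised and 3 lowered without day 6 (3 lowered also without day 6 replicate 1). On late days 1 was lowered without replicate 1 of the day 6 controls or without either day 6 KPT-330 library, and 2 without day 6. Within types it gave 16 to 18 called members in stem-like, 11 to 12 in enterocyte-like, 6 to 12 in goblet-like (12 without replicate 1 of the day 3 KPT-330 group), 13 to 17 in Paneth-like and 6 to 8 in enteroendocrine-like cells. Between types it gave 4 to 10 (stem-like minus Paneth-like), 1 to 3 (enterocyte-like minus Paneth-like) and 1 to 4 (stem-like minus enterocyte-like).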
